A study of Homo sapiens with 4 samples.

Results

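The contactins and the contactin-associated proteins are related families of neuronal surface proteins. The genes described here were taken by symbol from the per-gene counts of each library, 6 contactins (CNTN1 to CNTN6) and 4 contactin-associated proteins (CNTNAP1, CNTNAP2, CNTNAP4 and CNTNAP5), or 10 of 28307 gene symbols. They were chosen by family membership and not by a measured value. CNTNAP3 and its near-identical copies are not among them and are given only as genes that could share reads.

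Expression was measured by bulk polyA RNA sequencing, with 75 bp paired-end reads, in i3N-WTC11 neurons, excitatory neurons made from the human WTC11 line of induced pluripotent stem cells. By the labels' protocols, both groups were made from the same engineered cells, which carry dCas9-KRAB, a Cas9 that cannot cut DNA fused to a repressor domain, driven by a CAG promoter in an intron of CLYBL. Lentivirus was added to 2-week neurons at a multiplicity of infection of about 3, puromycin at 0.5 ug/mL was applied for 4 days, and RNA was taken 7 days after the virus. The CRISPRi group (2 libraries) received guides against a transposable element of the MIR family that lies on chromosome 11, with 2 guides per element. The series description gives 2 chromosome 11 intervals, 47605296 to 47605575 and 47608036 to 47608220, together called the targeted element here. The control group (2 libraries) received the empty guide vector. The parent is a single stem cell line, so the libraries hold no variation between donors.

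Total counts were 44839748 and 41560282 in CRISPRi 1 and 2 and 39325038 in Control 2, but 944993 in Control 1, 41.6 times fewer than in Control 2. In Control 1 a single read is worth 1.06 CPM (counts scaled to the library total), against 0.0223 to 0.0254 CPM in the others. The 8 neuronal markers together were at 14765 to 15544 CPM in the 3 deep libraries and 13073 CPM in Control 1. The 5 dividing-cell markers were at 35.8 to 39.0 CPM in the deep libraries and 233 CPM in Control 1. The comparisons of the groups below are therefore also given without Control 1. In bulk RNA, fewer cells of a type and less RNA per cell cannot be told apart.

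Contactins are adhesion molecules of the immunoglobulin superfamily, built of immunoglobulin and fibronectin type III domains and held in the membrane by a glycosylphosphatidylinositol anchor. Contactin-associated proteins, also called Casprs, cross the membrane and are distant relatives of the neurexins, with a short cytoplasmic tail that binds protein 4.1 family scaffolds. On myelinated axons CNTN1 and CNTNAP1 form the complex of the paranodal junction beside the node of Ranvier, and CNTN2 and CNTNAP2 form the complex of the juxtaparanode, where Kv1 potassium channels gather. Before myelination the same genes act in axon growth, fasciculation and synapse formation. The cultures were checked for the glia that make myelin. MAG and SOX10 had 0 counts in every library, and MOG had counts in Control 2 alone (0.0509 CPM). Other genes of the oligodendrocyte lineage were detected, MBP at 4.23 to 14.0 CPM, OLIG1 at 1.3 to 3.17 CPM and OLIG2 at 1.63 to 6.35 CPM over the 4 libraries.

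The families were led by CNTN1 and CNTNAP2. To compare genes, CPM were divided by the length of the gene's exons in GENCODE release 29 (CPM per kb). CNTN1 was highest at 102 ± 5.04 CPM per kb (mean ± SD over all 4 libraries, as for the other levels per kb), followed by CNTNAP2 at 43.1 ± 2.51. CNTNAP1 came next at 13.9 ± 1.05, then CNTN2, which ran from 8.13 to 11.2 over the libraries, and CNTNAP5 at 9.37 ± 1.07. CNTNAP4 stood at 5.51 ± 1.19, CNTN5 at 1.94 ± 0.557, CNTN3 at 0.582 ± 0.106 and CNTN4 at 0.0410 ± 0.0317 CPM per kb. CNTN6 had 0 counts in each library.

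The order was the same in nearly every library. The ranges over 4 libraries overlapped between CNTN2 and CNTNAP5, which changed places in Control 1, and between CNTN4 and CNTN6, since CNTN4 too had 0 counts there. All other neighbours in the order were separated in every library. The ratio of CNTN1 to CNTNAP2 per kb was 2.35 to 2.42 over the libraries, and the ratio of CNTN1 to CNTN2 was 9.48 to 11.7. Within the paranodal pair CNTN1 exceeded CNTNAP1 by 6.24 to 8.25 times per kb. Within the juxtaparanodal pair CNTNAP2 exceeded CNTN2 by 4.01 to 4.84 times. The ratios with CNTNAP2 carry the limit of its counts described below.

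**Figure D1:**
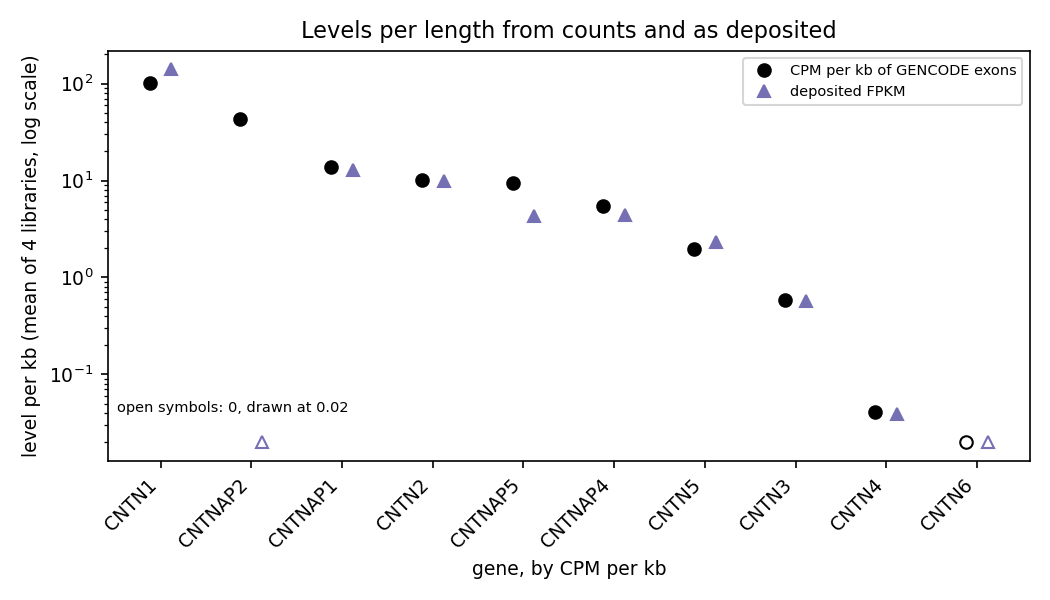
Mean level of the 10 genes over 4 libraries on a log axis, as CPM per kb of exon (circles) and as the deposited FPKM (triangles); open symbols mark a value of 0. CNTN1 (102 CPM per kb) and CNTNAP2 (43.1) lie above the rest by counts, while the FPKM of CNTNAP2 is 0 and that of CNTNAP5 (4.30) lies beside CNTNAP4 (4.41).

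The measured level of CNTNAP2 has a limit that the other genes do not share. CNTNAP2 spans 2304198 bp of chromosome 7, yet the only row of the gene in each deposited file lies on an alternate contig, chr7_KI270808v1_alt, from 2413 to 204591. Its deposited FPKM (a level scaled by the authors to gene length and library total) is 0 in all 4 libraries although the row holds 381 to 20537 counts. The same holds for every row with counts on alternate or fix contigs, 594 to 945 rows per library, against at most 0.0542% of rows on the primary chromosomes. Whether the counts cover the whole gene or the contig alone is not given in the sources used here, so the rank of CNTNAP2 among the genes rests on the counts as deposited. The comparison between groups uses the same row in every library.

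The gene models set other ranks to a smaller degree. Using the deposited FPKM, CNTN1 stayed highest at 140 and CNTNAP1, CNTN2 and CNTNAP4 were at 12.9, 9.96 and 4.41. CNTNAP5 was at 4.30 FPKM, level with CNTNAP4, where the exon lengths had put it near CNTN2. CNTN5, CNTN3 and CNTN4 were at 2.34, 0.567 and 0.0392 FPKM.

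Among the contactins CNTN1 is the paranodal member and also a ligand for several receptors on neurons and glia. The gene lies on chromosome 12 (40692439 to 41072415, plus strand, RefSeq on GRCh38.p14, as for all positions here). In CRISPRi 1 and 2 the gene had 33052 and 29734 counts (737 and 715 CPM), with 622 and 28473 counts (658 and 724 CPM) in Control 1 and 2. Control 2 lies between the CRISPRi libraries and Control 1 lies below all of them, so the groups overlap.

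CNTN2, also called TAG-1, is an axonal contactin of early projecting neurons and later of the juxtaparanode (chromosome 1, 205042949 to 205078289, plus strand). CRISPRi 1 and 2 had 90.0 and 88.1 CPM, whereas Control 1 and 2 had 65.6 and 80.0 CPM, from 62 counts in Control 1 and 3147 to 4037 in the others. Both CRISPRi libraries were above both controls.

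CNTN3 to CNTN6 form a subgroup of contactins that bind amyloid precursor family proteins and receptor tyrosine phosphatases and are expressed in restricted sets of neurons. CNTN5 (chromosome 11, 99020949 to 100358885, plus strand) is on the same chromosome as the targeted element, 51.4 Mb away. It was at 16.6 CPM in both CRISPRi libraries, at 17.5 CPM in Control 2 and at 8.47 CPM in Control 1, where 8 reads were counted. The control libraries lie on either side of the CRISPRi libraries.

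CNTN3 (chromosome 3, 74262568 to 74614659, minus strand) was low, at 3.26 CPM in CRISPRi 1 (146 counts), 3.20 in CRISPRi 2 (133 counts), 2.95 in Control 2 (116 counts) and 2.12 in Control 1 (2 counts), with both CRISPRi libraries above both controls. The 2 counts of Control 1 are fewer than 3 (3.17 CPM there), the level that a count of 0 allows. The gap between groups is therefore not resolved at this depth. The counted row of CNTN3 runs from 74262569 to 74521140 and stops short of the 5′ end of the extent given. The CNTN3 window printed below belongs to a start outside that row.

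CNTN4 and CNTN6 lie next to each other at the end of the short arm of chromosome 3. CNTN4 (2098866 to 3057959, plus strand) had 8 and 16 counts in CRISPRi 1 and 2, 13 in Control 2 and 0 in Control 1, or 0.178, 0.385, 0.331 and 0 CPM. CNTN6 (1093024 to 1404217, plus strand) had 0 counts throughout, which allows up to 0.0669, 0.0722 and 0.0763 CPM in the deep libraries and 3.17 CPM in Control 1; these limits cover counting error only. CHL1, the L1 family adhesion gene on the telomeric side of CNTN6, was also at 0 counts in every library, as was the interleukin receptor gene IL5RA beyond CNTN4.

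Further from the telomere the genes were detected. TRNT1, which adds the CCA end to transfer RNAs, was at 14.6 to 16.9 CPM, and CRBN, the substrate receptor of a ubiquitin ligase, was at 39.3 to 44.4 CPM. LRRN1, a neuronal leucine-rich repeat membrane protein, was at 188.1 to 188.6 CPM in the deep libraries and 140.7 CPM in Control 1. These neighbours were taken by position from RefSeq. Beyond LRRN1, SUMF1 was at 2.92 to 4.23 CPM and SETMAR at 11.6 to 17.0 CPM. ITPR1 was at 3.50 to 4.37 CPM in the deep libraries, with 0 counts in Control 1. CHL1, CNTN6, CNTN4 and IL5RA thus form a run of 4 neighbouring genes at or near 0. The genes that follow were detected in the deep libraries, SUMF1 and ITPR1 at a low level.

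**Figure D2:**
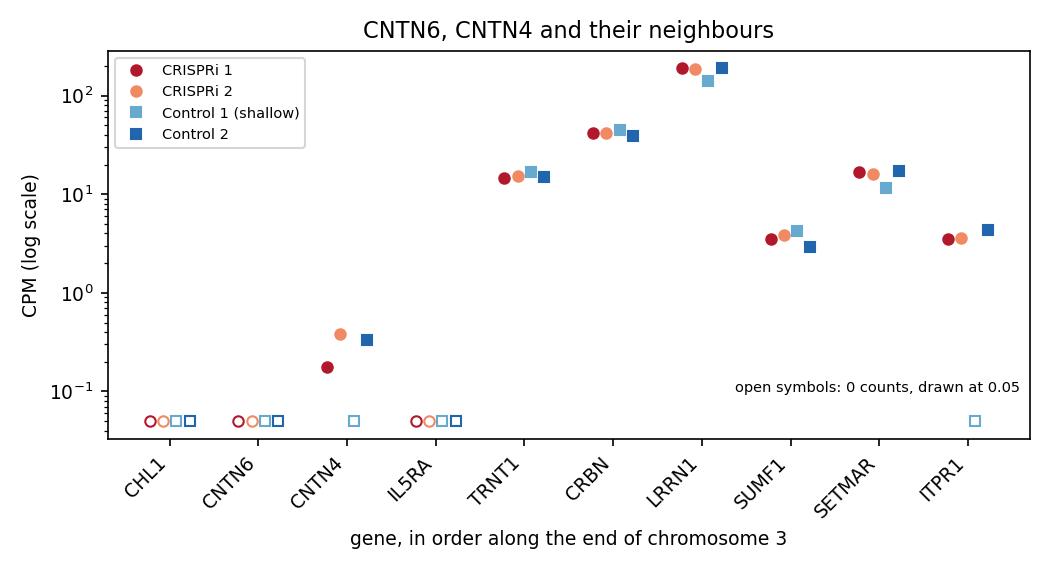
CPM per library, on a log axis, of genes in their order along the end of chromosome 3p; open symbols mark 0 counts. CHL1, CNTN6 and IL5RA have 0 counts in every library and CNTN4 at most 16, while TRNT1, CRBN and LRRN1 reach 14.6 to 188.6 CPM. SUMF1 lies at 2.92 to 4.23 CPM, and ITPR1 has 0 counts in Control 1 alone.

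The stretches upstream of the start sites differ in CG dinucleotides, the sites of DNA methylation. The RefSeq table used gives 250 bases upstream of at least 1 start for all 10 genes. For CNTN1 it holds windows of internal starts only, 136 kb and 216 kb inside the extent of the gene, and the window of the outermost start was not counted. The 4 shown are a window of the most abundant contactin and 1 window each of 3 of low level. Bases that GENCODE annotates as exon were left out. The counted row of CNTN4 starts at 2098803, so the last bases of its stretch, which ends at 2098812, lie inside that row. The stretches are printed 5′ to 3′ from GRCh38.p14, with each CG in capitals.
CNTN1, chr12:40908107-40908353, plus strand: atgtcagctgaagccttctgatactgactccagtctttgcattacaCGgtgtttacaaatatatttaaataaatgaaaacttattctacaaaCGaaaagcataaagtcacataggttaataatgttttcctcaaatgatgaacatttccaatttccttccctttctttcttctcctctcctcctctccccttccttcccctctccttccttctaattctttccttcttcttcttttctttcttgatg
CNTN3, chr3:74614660-74614909, minus strand: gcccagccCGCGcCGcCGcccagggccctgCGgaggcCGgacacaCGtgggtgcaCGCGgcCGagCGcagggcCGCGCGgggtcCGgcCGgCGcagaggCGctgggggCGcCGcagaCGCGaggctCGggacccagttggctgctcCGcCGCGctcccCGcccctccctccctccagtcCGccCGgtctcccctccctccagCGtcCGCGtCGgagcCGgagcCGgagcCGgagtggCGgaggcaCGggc
CNTN4, chr3:2098616-2098812, plus strand: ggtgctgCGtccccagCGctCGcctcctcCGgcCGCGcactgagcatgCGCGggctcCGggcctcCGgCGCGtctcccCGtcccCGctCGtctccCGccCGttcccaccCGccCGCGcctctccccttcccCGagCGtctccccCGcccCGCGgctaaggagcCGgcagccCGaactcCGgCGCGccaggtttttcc
CNTN5, chr11:99020699-99020948, plus strand: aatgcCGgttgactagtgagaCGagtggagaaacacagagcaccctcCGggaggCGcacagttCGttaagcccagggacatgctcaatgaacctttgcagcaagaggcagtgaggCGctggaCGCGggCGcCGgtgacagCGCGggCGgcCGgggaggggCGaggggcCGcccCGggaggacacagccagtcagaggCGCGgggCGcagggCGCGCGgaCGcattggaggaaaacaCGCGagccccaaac

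The CNTN1 stretch shown, from the inner of its listed starts, has 2 CG and 36.0% G and C, and the window of the other listed start has 5 CG. Neither can be set against the outermost starts of the other genes. CNTN3 has 38 CG and CNTN4 has 30 in the stretch shown and 40 in the whole window. The window of another listed start of CNTN4, inside the gene, has 2 CG and 34.8% G and C. Across 35116 RefSeq windows of 250 bases, the median is 11 CG and 93.9% hold at least 1. As many CG as CNTN3 or more are found in 3.28% of these windows. For the CNTN4 window with 40 CG the share is 2.16%, and for CNTN5 (26) it is 19.6%. CNTN6, at 0 counts, has 4 CG, and CNTNAP2, the second in level, has 12. All 250 bases of both these windows are annotated as exon of the same gene by GENCODE. They are thus not shown to lie upstream of every start. The searched letters are CG, which read the same on both strands. Which start site these neurons use, and whether the sites are methylated, was not measured.

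Among the contactin-associated proteins, CNTNAP1 is the paranodal partner of CNTN1 (chromosome 17, 42682531 to 42699993, plus strand). Its level was 68.2 CPM in CRISPRi 1, 69.9 in CRISPRi 2, 80.4 in Control 1 and 75.3 in Control 2, from 76 counts in Control 1 and 2905 to 3056 in the others. It was the only member that was lower in both CRISPRi libraries than in both controls. It shares 363 exonic bp with the antisense gene AC100793.3, for which no counts were used here, and 284 with CCR10, a chemokine receptor gene also on the opposite strand, with 4 to 134 counts, so reads there cannot be assigned without strand, which is not given in the sources used here.

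CNTNAP2 is the juxtaparanodal partner of CNTN2 and a gene studied in epilepsy and language (chromosome 7, 146116801 to 148420998, plus strand). The CRISPRi libraries had 458 and 451 CPM, Control 1 had 403 CPM and Control 2 had 453 CPM. Control 2 falls between the CRISPRi libraries, and Control 1 lies below all of them.

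CNTNAP4, known from presynaptic sites of interneurons and dopaminergic neurons, lies on chromosome 16 (76277401 to 76560757, plus strand). The 3 deep libraries were alike at 31.4, 31.0 and 31.2 CPM (CRISPRi 1, CRISPRi 2 and Control 2), and Control 1 had 19.0 CPM from 18 counts. CNTNAP5 is the least studied of the 4 (chromosome 2, 124025287 to 124921219, plus strand). CRISPRi 1 had 57.4 CPM and CRISPRi 2 had 46.7, with 44.4 and 49.4 CPM in Control 1 and 2, so the CRISPRi libraries differ from each other by more than the controls do.

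**Figure D3:**
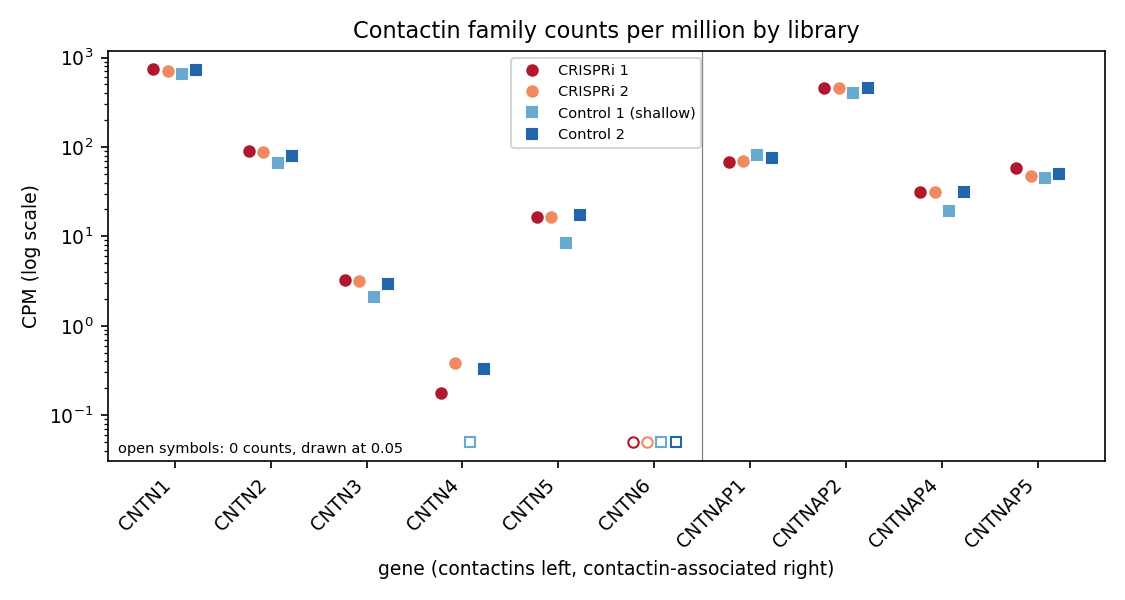
CPM of each gene on a log axis, 1 point per library (red circles CRISPRi, blue squares control); open symbols mark 0 counts. CNTN1 runs from 658 to 737 CPM and CNTNAP2 from 403 to 458 CPM, with Control 1 lowest for both.

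Antisense and copied genes were checked as possible sources of reads. CNTN4-AS1, CNTN4-AS2 and CNTNAP2-AS1 had 0 counts in every library. CNTNAP4 shares 157 exonic bp with AC104151.1, a gene on the same strand for which no counts were used here. CNTNAP3, CNTNAP3B and CNTNAP3P2 are near-identical copies whose reads counting can split, so their values are uncertain. They were at 24.3 to 31.7, 5.29 to 8.92 and 1.06 to 8.56 CPM over the 4 libraries.

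The comparison of CRISPRi with control asked whether these genes differ between neurons given guides against the transposable element and neurons given the empty vector. None of them passed the threshold. The state of the element itself was not measured. With edgeR's quasi-likelihood F test and Benjamini-Hochberg adjusted p over 15708 tested genes, 0 of the 9 tested members were called higher and 0 lower (adjusted p 1.00 for each), against 0.0% of all tested genes called higher and 0.0255% called lower. CNTN6 could not be tested. Unadjusted p under 0.05 was found for 0 of the 9 members and for 0.961% of all tested genes. DESeq2, limma-voom and the fit with the replicate number as a block also called 0 members, against 0.0764%, 0.0127% and 0.267% of all tested genes.

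With all 4 libraries, the intervals were narrowest for the abundant members. CNTN1 had a log2 fold change of 0.08 (SE 0.09, 95% confidence interval -0.14 to 0.30, CRISPRi relative to control), which allows a change of at most 1.23-fold. CNTNAP2 had 0.10 (SE 0.09, interval -0.14 to 0.33, at most 1.25-fold). CNTNAP1 had -0.14 (SE 0.08, interval -0.33 to 0.05, at most 1.26-fold). The log2 fold change of CNTN2 was 0.24 (SE 0.10, interval -0.02 to 0.49, at most 1.41-fold).

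The less abundant members were measured more loosely. CNTNAP5 allowed at most 1.37-fold (log2 fold change 0.12, interval -0.21 to 0.45), CNTNAP4 at most 1.5-fold (0.14, interval -0.31 to 0.58) and CNTN5 at most 1.57-fold (0.08, interval -0.50 to 0.65). For CNTN3 (0.21, interval -0.70 to 1.12) and CNTN4 (-0.15, interval -1.94 to 1.65) the intervals included a 2-fold change. In all, 7 of the 9 intervals excluded a 2-fold change in either direction, and 6 excluded a 1.5-fold change. These tallies depend on the libraries kept. Without Control 1 they were 8 and 7, without Control 2 they were 4 and 3, without CRISPRi 1 they were 6 and 4, and without CRISPRi 2 they were 6 and 2. Without Control 2 the intervals of CNTN5, CNTNAP5 and CNTNAP4 reached 2.95-fold, 2.44-fold and 2.15-fold. These intervals can be narrower than counting error in Control 1 allows, so the tallies without Control 2 may be too high. CNTN5 had 8 counts in Control 1, and its ratio of Control 1 to Control 2 had a 95% counting interval of 0.208 to 0.957. CNTN1 and CNTNAP2 allowed at most 1.44-fold and 1.43-fold with any 1 library left out.

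**Figure D4:**
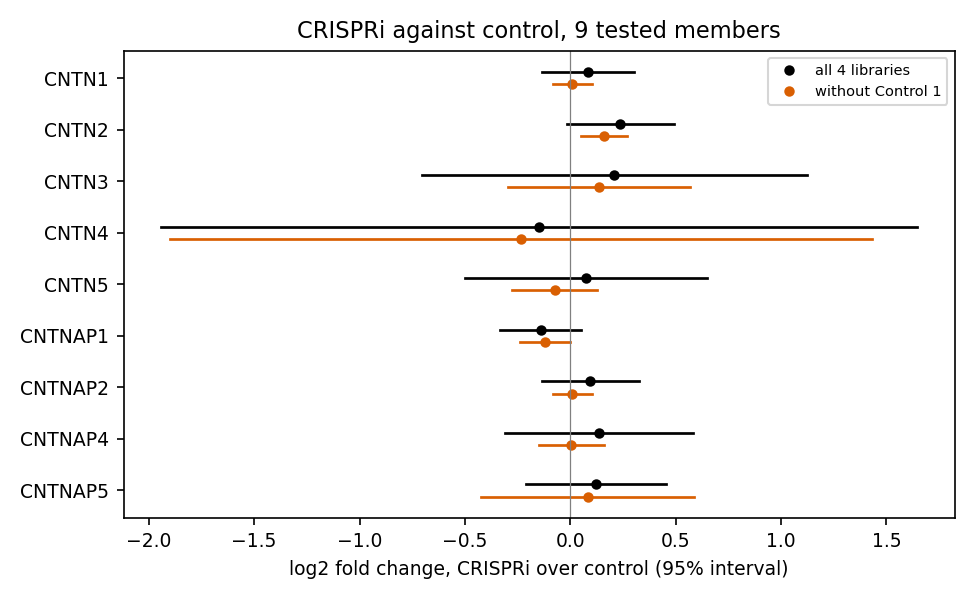
Log2 fold change of CRISPRi relative to control for the 9 tested genes, as points with 95% confidence intervals, with all 4 libraries and without Control 1. The points lie between -0.15 and 0.24 with all libraries, and the interval of CNTN4 is the widest.

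Groups that did not overlap were no more frequent among the members than among all genes. CNTN2 and CNTN3 were higher in both CRISPRi libraries than in both controls and CNTNAP1 was lower, 3 of 9 members, where 17.8% of all tested genes were separated upward, 16.5% downward and 34.3% in either direction. The median log2 fold change of the 9 members was 0.10, with 7 above 0 and 2 below, and that of all tested genes was 0.01, with 52.7% above 0.

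That median rested on Control 1. Without it, the member median was 0.01, and CNTN1, CNTNAP2 and CNTNAP4 each had a log2 fold change of 0.01. CNTN3 was at 0.14, CNTN4 at -0.23, CNTN5 at -0.07 and CNTNAP5 at 0.08. CNTN2 was at 0.16 (95% interval 0.05 to 0.27, adjusted p = 0.745 by edgeR, Benjamini-Hochberg). CNTNAP1 was at -0.12 (interval -0.24 to -0.00, adjusted p = 0.98 by edgeR, Benjamini-Hochberg). These were the 2 members of 9 with an unadjusted p under 0.05, where 4.48% of all tested genes had one. The number called was again 0 of 9, with 0.659% of all tested genes called. The control group then holds 1 library, which is assumed to vary like the CRISPRi pair.

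Without Control 2, which leaves Control 1 as the only control, the member median was 0.47. The log2 fold changes were then 0.17 for CNTN1, 0.20 for CNTNAP2, 0.47 for CNTN2, 0.64 for CNTN3, 0.74 for CNTNAP4 and 1.00 for CNTN5. By edgeR 5 of the 9 members had an unadjusted p under 0.05, beside 21.7% of all tested genes, and 0 were called, beside 8.58% of all tested genes. The size of the member median thus depended on which control library was kept.

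Control 1 was below the other 3 libraries in 8 of the 9 tested members and above them in CNTNAP1, where 50.2% of all tested genes were below and 39.5% above. All 8 neuronal markers were below as well. So were 13 of the 17 tested membrane partners and 13 of the 20 scaffold and channel partners, both described below. Above were 2 of those 17 and 5 of those 20, the neuronal scaffold DLG4 among the latter. Relative to Control 2, Control 1 held 0.909 times as much CNTN1 (95% counting interval 0.838 to 0.984) and 0.889 times as much CNTNAP2 (0.801 to 0.984), and the summed neuronal markers stood at 0.868. CNTN5 was at 0.483 (0.208 to 0.957) and CNTNAP4 at 0.610 (0.360 to 0.968). For CNTN2 (0.820), CNTN3 (0.717), CNTNAP1 (1.07) and CNTNAP5 (0.900) the interval included equality. The summed dividing-cell markers were 5.97 times as high in Control 1 as in Control 2, and the part of these cells, and of the lower depth, in the member values was not tested.

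**Figure D5:**
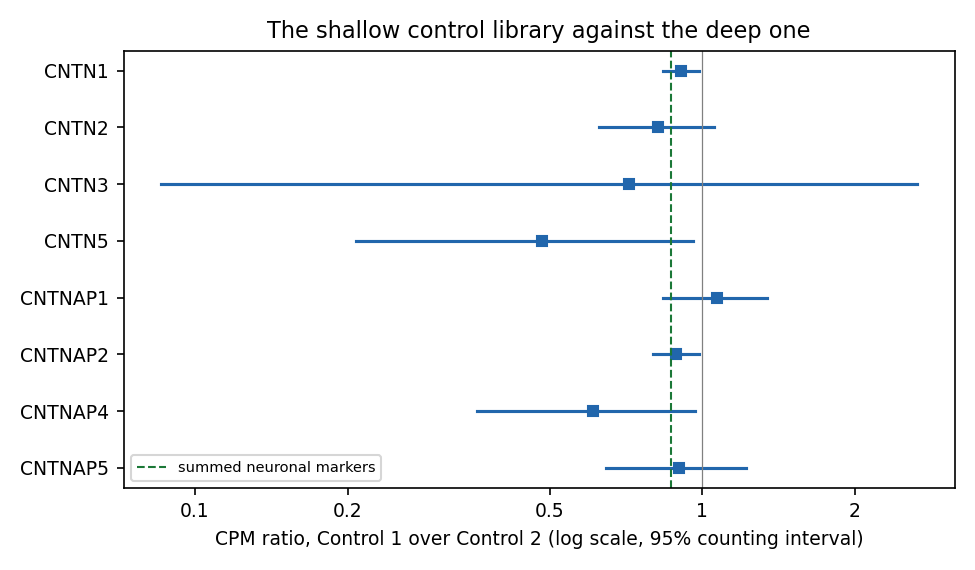
Ratio of CPM in Control 1 to Control 2 for the 8 members with a count in both, on a log axis with 95% counting intervals; the dashed line is the summed neuronal markers (0.868). CNTN1 (0.909) and CNTNAP2 (0.889) are narrow and just below 1, while CNTN3 spans 0.0859 to 2.65.

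Partner genes of the families, 18 membrane and extracellular and 20 scaffold and channel genes were listed from general knowledge of the complexes. Of the membrane partners 17 were tested, all but CHL1, and 0 were called. Their log2 fold changes were above 0 for 12 and below for 5, with a median of 0.05. Without Control 1 this turned to 5 above and 12 below, with a median of -0.03. All 20 scaffold and channel genes were tested, and 0 were called. There 11 were above 0 and 9 below, with a median of 0.01, and without Control 1 it was 7 above and 13 below, with a median of -0.03. Over all tested genes 52.7% were above 0 with all libraries and 49.8% without Control 1.

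Among membrane partners, APP, the amyloid precursor that contactins bind, had the highest CPM, with 2138, 2228, 1852 and 2184 CPM in CRISPRi 1, CRISPRi 2, Control 1 and Control 2. Its log2 fold change was 0.13, and 0.0051 without Control 1. The adhesion molecule L1CAM and the APP relative APLP1 were at 0.05 and 0.11, and at -0.02 and -0.03 without Control 1. The smallest p values of this list belonged to NOTCH1 (-0.23), a receptor for which contactins are ligands, to ADAM22 (0.15) and ADAM23 (0.11), catalytically inactive receptors of LGI proteins, and to APP. Without Control 1, NOTCH1 was at -0.25, ADAM22 at 0.04 and ADAM23 at 0.12. None of them passed the threshold.

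The scaffolds that tie these complexes to the cytoskeleton had their highest CPM in ANK2, SPTAN1 and SPTBN1, an ankyrin and spectrins, with log2 fold changes of 0.11, 0.09 and 0.06, which were 0.02, -0.02 and 0.01 without Control 1. The smallest p values were those of DLG4, EPB41L2, EPB41L3 and SPTBN4 (-0.26, -1.28, 0.13 and 0.12). Without Control 1, EPB41L3 was at 0.05 and SPTBN4 at 0.08. EPB41L2, a protein 4.1 family scaffold, was at 5.49 and 5.68 CPM in CRISPRi 1 and 2, at 6.41 CPM in Control 2 and at 34.9 CPM in Control 1. Without Control 1 its log2 fold change was -0.19. DLG4, the postsynaptic scaffold PSD-95, was at 267 and 273 CPM in CRISPRi 1 and 2, 278 CPM in Control 2 and 392 CPM in Control 1, and was at -0.03 without it. Both are thus set apart by 1 library, the one with high dividing-cell markers, whose part in these values was not tested.

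Of the Kv1 channel subunits that gather with CNTNAP2 at the juxtaparanode, KCNA2 was at 309, 301, 321 and 303 CPM in CRISPRi 1, CRISPRi 2, Control 1 and Control 2. KCNA1 was at 0 to 0.432 CPM and KCNA4 at 0 to 1.83 CPM, with 0 counts in Control 1 for both. The groups overlap for each of these channel genes.

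C1QTNF4 and MTCH2, the genes on either side of the targeted element, were not called either, with log2 fold changes of 0.06 and 0.08, and 0.06 and -0.02 without Control 1.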

How the data were processed

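Bulk polyA RNA sequencing of 4 libraries was analysed, 2 CRISPRi and 2 control, described as biologically independent per the labels. The authors deposited a whole-number count and an FPKM-like value per gene row, without a header; that the second value is FPKM was inferred from the values. The submitters' processing notes name hg38, edgeR and limma, without tool versions. For the aligner, counter and strandedness the sources used here give nothing.

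Counts were summed per symbol over all rows, scaled to CPM by the library total, and compared in R 4.3.3. After filterByExpr and TMM scaling, edgeR 4.0.16 fitted the group alone by robust quasi-likelihood, and p-values were adjusted by Benjamini-Hochberg over all tested genes (0.05). limma 3.58.1 (voom) and DESeq2 1.42.0 were alternatives, with other scalings and filters, a replicate block, primary-chromosome rows only, and each library left out in turn. Gene length by longest transcript and the deposited FPKM were added after seeing the data. The procedure was tested on simulated data. The simulated libraries kept the real depths but shared a common gene profile apart from planted changes. A control library of different composition was therefore not covered. With 2 libraries against 2, exact permutation tests cannot reach 0.05 and none was run. Counting intervals are 95% exact intervals and cover counting error only. Intervals of log2 fold changes used an SE taken from the fold change and the F statistic.

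The members, the partner and marker lists and the tests were chosen with earlier results of these data known. Named genes were all members, the 4 partners of each list with the smallest p and the 3 with the highest CPM, genes that could share reads, and C1QTNF4 and MTCH2. One listed marker is not reported here. The chromosome 3 neighbours, CCR10, KCNA1, KCNA2 and KCNA4 were named after their values were seen. Promoter windows are RefSeq's on GRCh38.p14; the 4 printed were picked after values were seen and trimmed of annotated exons.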

Additional observations from a re-analysis of the deposited data

How the results depend on the processing

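The number of members called was 0 higher and 0 lower under every alternative run, the replicate block among them. Counts over all genes moved. Genes called higher were 0 with all libraries, 1 with DESeq2, 17 with the replicate block and 2 to 580 when a library was left out. Genes called lower were 4, then 11 with DESeq2, 2 with limma-voom, 25 with the block and 15 to 798 when a library was left out, the largest without Control 2. Partners called higher were 0 to 7 and lower 0 to 2 over the libraries left out. The labels give no pairing of the libraries by replicate number. The correlation of same-numbered deviations was -0.03. It cannot decide the question, because deviations within a group of 2 libraries mirror each other and Control 1 is shallow.

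Of 106 values for the 9 tested members under the alternatives, 100 kept their sign and side of the threshold and 6 turned sign. CNTN4 turned to 0.062 under DESeq2 and to 0.34 under the replicate block, and ran from -0.69 to 6.05 over the libraries left out, where the highest value is against 0 counts in Control 1 and is no bound. CNTN5 ran from -0.074 to 1.00 and CNTNAP5 from -0.0078 to 0.28 over the libraries left out. Other genes that changed sign were L1CAM (-0.021 to 0.14), APLP1 (-0.026 to 0.27), SPTAN1 (-0.017 to 0.21), CNTNAP3 (-0.18 to 0.23), CNTNAP3B (-0.037 to 0.54), CNTNAP3P2 (-0.39 to 2.51), C1QTNF4 (-0.084 to 0.18) and MTCH2 (-0.016 to 0.25). The cause was not tested. The member median ran from 0.01 to 0.47.

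The level of CNTN1 was 128 CPM per kb by longest transcript, 140 by deposited FPKM and 108 from primary-chromosome rows, against 102. CNTNAP2 was 0 by deposited FPKM and has no value from primary-chromosome rows, and CNTNAP5 was 4.30 by deposited FPKM.

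The depth of Control 1 limits CNTN3, CNTN4, CNTN5 and CNTNAP4, which had 0 to 18 counts there. A group left with 1 library is assumed to vary like the other.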
